A study of Chlorocebus sabaeus with 12 samples.

Results

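The mitochondrial ribosomal protein genes were taken as the array's gene names that begin with MRPL or MRPS and go on with a number and, in some, one of the letters A to C. The array names 76 such genes, through 105 probes, among 30982 gene names in all. For each gene the brightest probe that passed the filter on dim probes stood for it. To pass, a probe had to be well above background on every one of the 3 arrays of 1 or more groups. It left 75 of the 76 genes, beside 20355 genes tested on the array as a whole. The gene that it left out was MRPL36, whose probe was well above background on 3 of 12 arrays.

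Mitochondria translate the few messages of their own DNA on a ribosome of their own, which makes core subunits of the respiratory chain and of ATP synthase. Its RNAs come from mitochondrial DNA, but its proteins are encoded in the nucleus, made in the cytosol and imported. Many of them descend from bacterial ribosomal proteins, and others are found in mitochondria alone. The large subunit joins amino acids into protein, and the small subunit reads the messenger RNA.

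The series was designed around phosphorylation of FXR, a nuclear receptor for bile acids encoded by NR1H4. COS-1 cells, a line from African green monkey kidney, were transiently transfected for 24 h with human FXR in which a serine is replaced by alanine (S154A) or by aspartate (S154D). Either 0.1% DMSO, the solvent, or chenodeoxycholic acid (CDCA), a bile acid that activates FXR, was then present for another 24 h. The labels give the CDCA dose as 50 mM, and the files do not settle whether that unit is the one meant. All 12 arrays therefore came from cells that carried a mutant receptor, and cells with wild-type FXR or without transfection are not analysed here. The 4 groups, S154A_DMSO, S154A_CDCA, S154D_DMSO and S154D_CDCA, held 3 arrays each. The labels do not say that replicates came from separate cultures, so p-values measure the spread between arrays, which may be technical.

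RNA from monkey cells was hybridised to human probes of 60 bases, and 73 of the 76 gene names are also symbols in the green monkey RefSeq annotation. The 75th percentile of signal lay between 1234 and 2107 across arrays, and between 61.6% and 79.8% of an array's spots stood well above background. The NR1H4 probe was well above background on all 12 arrays, with group means of 7.56 to 7.77 (log2 relative to the array's 75th percentile). FABP6, a bile acid binding protein and target of FXR, was higher with CDCA in S154A cells by 7.08 ± 0.57 (log2, SE, n = 3 arrays a group, adjusted p = 0.000621 by limma). In S154D cells its change was 0.16 ± 0.57 (adjusted p = 0.879 by limma). There its probe was dim, with group means of -6.15 in S154D_DMSO and -5.99 in S154D_CDCA. It was well above background on 1 of 3 and 2 of 3 of these arrays. OSTalpha, another target, changed by 2.55 ± 0.18 in S154A cells (adjusted p = 0.000245 by limma) and by 0.19 ± 0.18 in S154D cells (adjusted p = 0.494 by limma). Of 6 fibroblast-like markers 5 were well above background on every array and COL1A2 on none. Of 8 kidney epithelium markers 6 were well above background on every array. APOB of the hepatocyte list and PTPRC of the leukocyte list were well above background on no array. The arrays lay on 4 slides, per the names of the scanner files. Slide 3 held 1 array of each group, slide 2 held S154A_DMSO 2 with S154D_CDCA 1 and 3, slide 4, scanned on a day of its own, held S154A_CDCA 2 and S154D_DMSO 2, and slide 1 the rest.

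The sequences that follow are the first 30 bases, from the 5′ end, of the 60-base probes behind the results, as the deposited files give them, with every G and C in capitals. They are shown because the changes described further on were ordered by how many of a probe's bases are G or C. The first group holds the 5 genes that passed the test in S154D cells. Their probes lie at chr2:27913985-27914044 for MRPL33, chr2:224657259-224657318 for MRPL44, chr2:105174826-105174885 for MRPS9, chr2:75794314-75794373 for MRPL19 and chr4:79161761-79161819 for MRPL1, all on the plus strand of hg17. Which exon or untranslated region each probe matches was not analysed here. Of the 60 bases, 21 were G or C in MRPL33, MRPS9 and MRPL1, which is 35%, and 27 in MRPL44 and MRPL19, which is 45%.
MRPL33: aataCGCtCCCtttaaaCGGtGGattGaaa
MRPL44: GCCatGGatGCaGCaGCCtGaaaCttGaGa
MRPS9: GGGCaGtaCtGtCaGaaatttCtttGaGCt
MRPL19: CatCaCCaGaatGGtCtttaatGaGCatGG
MRPL1: aattCttGaCtttaCtaGtCCaaaGCaaaG

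The second group holds probes at the high end of the genes' range, where 33 of 60 bases, or 55%, were G or C. These 3 come first by symbol among 11 genes tied at 55%. MRPL14 lies at chr6:44189558-44189617 and MRPL2 at chr6:43130004-43130063, both on the minus strand, and MRPL34 at chr19:17278290-17278349 on the plus strand (hg17).
MRPL14: CtGCGCaaGCGGGaaGGCGaGtattCCaaG
MRPL2: CtGGCCGaaaGattCGGCCaCtaCCCCCCa
MRPL34: GGaCCtGaGtGCtCtCCatattGtGGGGtt

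The third group shows 4 probes of a single gene, MRPL43, which encodes a large subunit protein and which was chosen after its values were seen. They lie on the minus strand of chromosome 10 at chr10:102731132-102731191, chr10:102736226-102736285, chr10:102736124-102736183 and chr10:102728234-102728293 (hg17). In that order 17, 24, 27 and 32 of their 60 bases were G or C.
MRPL43 with 28.3% GC: CaCttCaCatCttaaatatGtttCCtaGtt
MRPL43 with 40% GC: CtCatttttatGCaaGtGGCatCCCtaaaa
MRPL43 with 45% GC: CaaaaCaCaGtGaGaGGtCtGaaGGCtGGC
MRPL43 with 53.3% GC: GGCtGtGtaGaGGCCtCCatCtGGCGtGGG

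The first comparison asked which genes differed between CDCA and DMSO in cells with S154D. In S154D cells 5 of 75 genes tested rose, MRPL33, MRPL44, MRPS9, MRPL19 and MRPL1, and none fell (limma, Benjamini-Hochberg over 20355 genes, adjusted p under 0.05). Over all genes 10.2% were called, 6.45% as higher and 3.74% as lower. The 6.67% of mitochondrial ribosomal protein genes called higher is close to that background. The fit used all 12 arrays, and with only the S154D arrays fitted none of the 75 and none of all 20355 genes was called. The change was positive in 57 of the 75 genes, beside 49.1% of all genes, and its median was 0.16 on the log2 scale, beside -0.01 over all genes. The 75 genes were bright, with a median log2 level of 3.33 beside -0.9 over all genes tested. Of the 3911 genes on the array with a mean log2 level of 2 or more, 2164 were positive with S154D and the median was 0.03. The median of the 75 genes was 0.10 without S154D_DMSO 3 and 0.07 without slide 2. It was 0.26 with scaling by the array median and 0.34 without scaling, where all genes moved to 0.1 and 0.18. Fewer cells that express a gene and less of its RNA per cell cannot be told apart in these bulk samples.

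MRPL33 encodes a small protein of the large subunit that has a bacterial counterpart. Its log2 level, relative to the array's 75th percentile, was 2.66, 2.67 and 2.67 in S154A_DMSO, 2.86, 2.87 and 2.30 in S154A_CDCA, 2.25, 2.70 and 2.14 in S154D_DMSO, and 3.29, 3.07 and 3.28 in S154D_CDCA. The S154D_CDCA arrays were the highest of all 12, and each of the other groups overlapped another. The change with S154D was 0.85 ± 0.18 (log2, SE, n = 3 arrays a group), or 1.8-fold, with an adjusted p of 0.0303 by limma. The dimmer probe of MRPL33, with 43.3% GC, had a change of 0.51.

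MRPL44 encodes a protein of the large subunit that resembles ribonuclease III and is specific to mitochondria. Its log2 level was -4.24, -4.29 and -4.54 in S154A_DMSO, -5.09, -5.04 and -4.87 in S154A_CDCA, -4.78, -4.39 and -4.50 in S154D_DMSO, and -3.92, -4.15 and -4.13 in S154D_CDCA. The S154D_CDCA arrays were again the highest, the S154A_CDCA arrays were the lowest, and both DMSO groups overlapped in between. This probe was dim, and it was well above background on 2 of 3 arrays of S154A_CDCA and on all 9 others. With S154D the change was 0.49 ± 0.13 (SE, n = 3 arrays a group, adjusted p = 0.0473 by limma), or 1.4-fold, and it was 0.20 after the normexp background correction, which ends the call.

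MRPS9 encodes a small subunit protein with a bacterial counterpart. Its log2 level was 3.25, 3.11 and 3.36 in S154A_DMSO, 3.65, 3.48 and 3.41 in S154A_CDCA, 3.29, 3.40 and 3.25 in S154D_DMSO, and 3.61, 3.82 and 3.83 in S154D_CDCA. Both CDCA groups lay above the DMSO group of the same mutant, and they overlapped each other. The change with S154D was 0.44 ± 0.11 (SE, n = 3 arrays a group, adjusted p = 0.0389 by limma).

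MRPL19 and MRPL1 encode large subunit proteins with bacterial counterparts, and MRPL1 belongs to the stalk beside the site where tRNA leaves the ribosome. The log2 level of MRPL19 was 3.29, 3.17 and 3.19 in S154A_DMSO, 3.31, 3.35 and 3.21 in S154A_CDCA, 3.17, 3.31 and 3.02 in S154D_DMSO, and 3.55, 3.48 and 3.66 in S154D_CDCA. The log2 level of MRPL1 was -0.90, -1.0 and -1.22 in S154A_DMSO, -1.0, -1.09 and -1.06 in S154A_CDCA, -1.11, -0.98 and -1.08 in S154D_DMSO, and -0.76, -0.66 and -0.61 in S154D_CDCA. For both genes the S154D_CDCA arrays stood above the other 9, which overlapped among themselves. The changes with S154D were 0.39 ± 0.10 for MRPL19 (adjusted p = 0.0415 by limma) and 0.38 ± 0.10 for MRPL1 (adjusted p = 0.0448 by limma), with SE and n = 3 arrays a group.

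**Figure D1:**
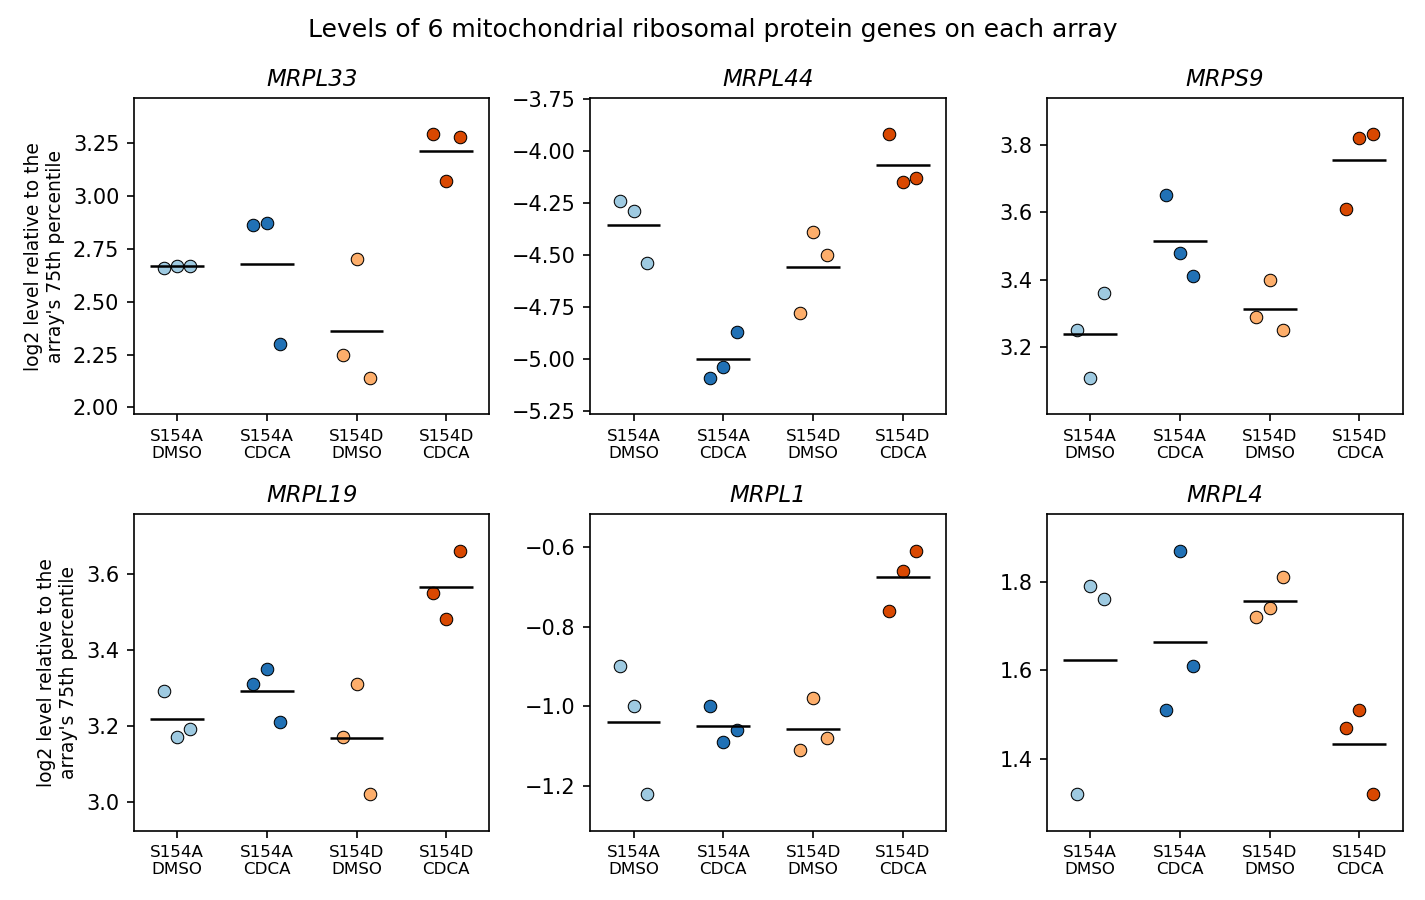
Log2 level relative to the array's 75th percentile (vertical axis, a scale of its own in each panel) of 6 genes by group, with 1 point per array and a line at the mean of 3 arrays. In MRPL33, MRPL44, MRPL19 and MRPL1 the S154D_CDCA points lie above the other 9, in MRPS9 they overlap S154A_CDCA, and in MRPL4 they lie below the S154D_DMSO points.

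The calls depended on single arrays. With single arrays left out, the number of genes called with S154D was 0 without S154D_DMSO 1, S154D_DMSO 3 or S154D_CDCA 3, and it was 1 without S154A_DMSO 1 or S154D_CDCA 2. It was 2 without S154A_DMSO 2, S154A_DMSO 3 or S154A_CDCA 1, 3 without S154A_CDCA 3 or S154D_CDCA 1, and 4 without S154A_CDCA 2 or S154D_DMSO 2. Calls over all 20355 genes moved too, and ran from 0% to 10.7% of genes with single arrays left out. They went from 2073 to 1 without S154D_DMSO 1. They went to 0 without S154D_DMSO 3, without S154D_CDCA 3 or with the slide as a block. With the slide as a block none of the 75 genes was called with S154D, and 9 were under 0.05 before adjustment, beside 22.1% of all genes. Slide 3 was the one slide that held both S154D groups, 1 array of each. On it the differences were 0.93 for MRPL33, 0.57 for MRPS9, 0.46 for MRPL19, 0.42 for MRPL1 and 0.35 for MRPL44, and the median over 75 genes was 0.21, with 57 positive.

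The genes with negative changes in S154D cells had none that passed the test. MRPL4, which lines the tunnel through which new protein leaves the large subunit, had log2 levels of 1.32, 1.79 and 1.76 in S154A_DMSO, 1.51, 1.87 and 1.61 in S154A_CDCA, 1.72, 1.74 and 1.81 in S154D_DMSO, and 1.47, 1.51 and 1.32 in S154D_CDCA. The 2 S154D groups did not overlap, but S154A_DMSO overlapped both of them. The change was -0.32 ± 0.14 (SE, n = 3 arrays a group, adjusted p = 0.164 by limma). MRPL28 had a change of -0.26 ± 0.10 (adjusted p = 0.119 by limma) and MRPL24 one of -0.18 ± 0.10 (adjusted p = 0.254 by limma), both in large subunit proteins with bacterial counterparts. In all, the 3 arrays of S154D_CDCA lay above the 3 of S154D_DMSO in 24 of 75 genes, beside 20.0% of all genes, and below them in 5, beside 13.7%.

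**Figure D2:**
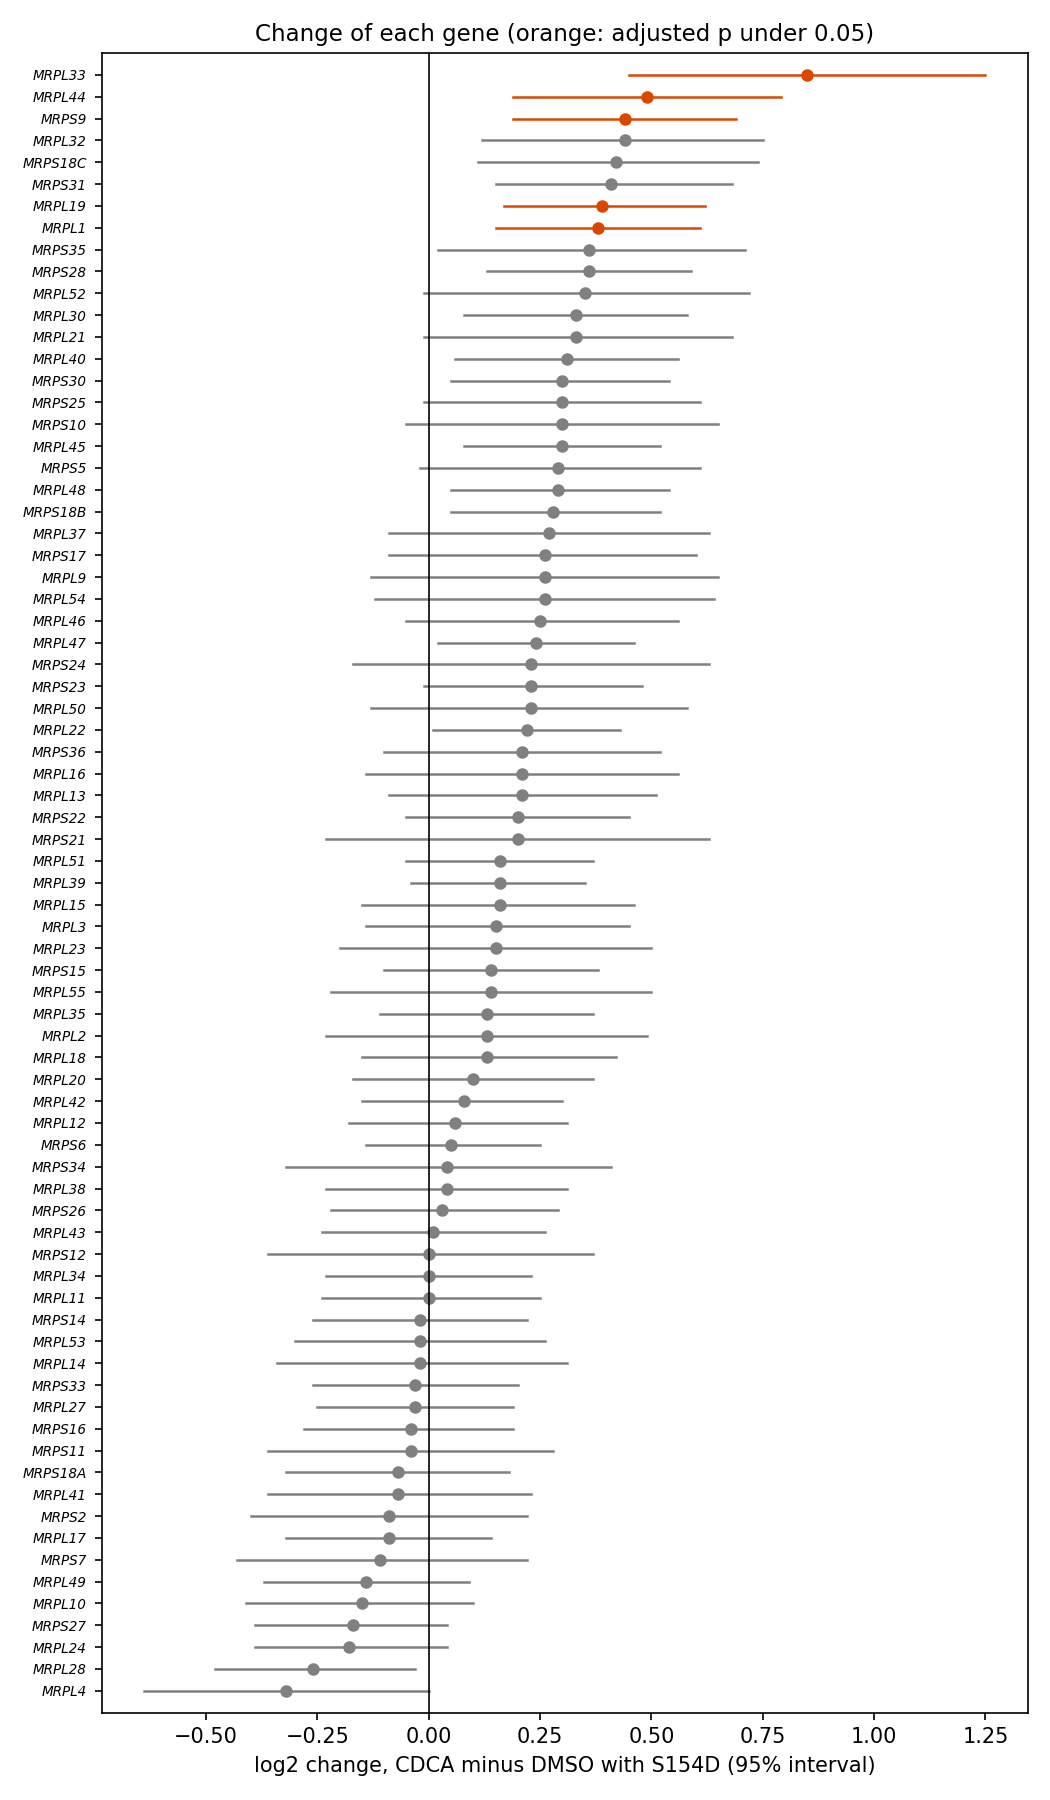
Log2 change between CDCA and DMSO with S154D (horizontal axis) for each of 75 genes, in order of the change, with lines for 95% intervals from limma (3 arrays a group). The 5 orange genes passed an adjusted p of 0.05; the changes run from -0.32 for MRPL4 to 0.85 for MRPL33, and 57 are positive.

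Neither subunit held all of the calls. Of 48 large subunit genes, MRPS18A and MRPS30 included because structures place them there, 37 had a positive change with S154D, 4 passed the test and the median was 0.16. Of 26 small subunit genes, 19 were positive, 1 passed and the median was 0.20. Genes with a bacterial counterpart had a median of 0.14, with 34 of 47 positive and 4 called, and genes specific to mitochondria had a median of 0.23, with 22 of 27 positive and 1 called. Over all genes 10.2% were called and 49.1% positive. MRPS36, now placed in the oxoglutarate dehydrogenase complex and not in the ribosome, had a change of 0.21 ± 0.14 (SE, n = 3 arrays a group, adjusted p = 0.348 by limma).

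By the median level per array, the genes were highest in S154D_CDCA. The median log2 level of the 75 genes was 3.53, 3.41 and 3.50 on its 3 arrays, against 3.33, 3.38 and 3.23 in S154D_DMSO, 3.29, 3.33 and 3.22 in S154A_CDCA and 3.29, 3.39 and 3.28 in S154A_DMSO. No array of another group reached the lowest of S154D_CDCA, although S154A_DMSO 2 and S154D_DMSO 2 came within a few hundredths of it. On the S154D_CDCA arrays 67, 48 and 62 of 75 genes were above their own mean over 12 arrays. By that count the groups overlapped, with 60 genes on S154A_DMSO 2 and 58 on S154D_DMSO 2. S154A_DMSO 2 and S154D_CDCA 1 and 3, the arrays with the most genes above their mean, were those of slide 2. On slide 3 the median level was 3.41 in S154D_CDCA, beside 3.28, 3.29 and 3.23 in S154A_DMSO, S154A_CDCA and S154D_DMSO. Whether the levels went with the slide or with the group was not tested. All 3 S154D_CDCA arrays stood above the other 9 in 17 of 75 genes, or 22.7%, beside 8.72% of all genes. The median SD within groups was 0.135 over these genes and 0.21 over all genes, most of which were dimmer. The median SE of a change with S154D was 0.122 over these genes and 0.168 over all genes. It was 0.134 over the 3911 genes with a mean log2 level of 2 or more, and 0.136 over cytosolic ribosomal protein genes and over respiratory chain genes.

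**Figure D3:**
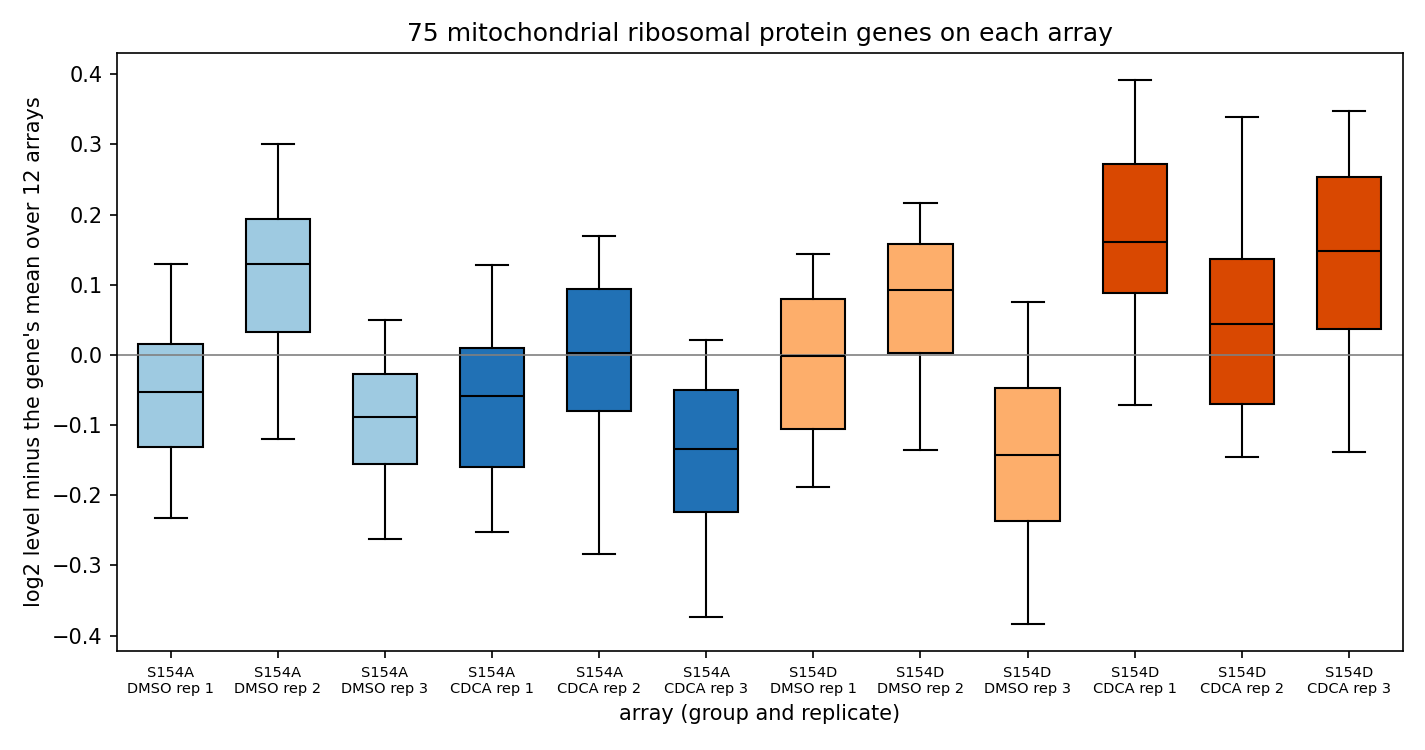
Log2 level of 75 genes on each array minus the gene's mean over 12 arrays (vertical axis), with the median as a line, the 25th to 75th percentile as a box and the 5th to 95th percentile as whiskers. The S154D_CDCA boxes have medians of 0.16, 0.04 and 0.15, and the S154A_DMSO 2 and S154D_DMSO 2 boxes have medians of 0.13 and 0.09. S154D_CDCA 1, S154D_CDCA 3 and S154A_DMSO 2 lay on slide 2.

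The GC content of a probe is the share of its bases that are G or C, and it affects how strongly a probe binds. The 75 probes held 35% to 55% GC with a median of 45%, a narrower range than the 18.3% to 88.3% of all genes tested. Among them, a lower GC content went with a more positive change in S154D cells. The Spearman correlation was -0.58 over 75 genes and -0.56 over all 20355, a description across probes that share the same arrays. The change fell by 0.21 on the log2 scale for each 10 percentage points of GC among these genes and by 0.26 among all genes.

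All 11 genes with probes under 40% GC had positive changes, with a median of 0.29, and 3 of them passed the test: MRPL33, MRPS9 and MRPL1. The median over all 5553 genes with such probes was 0.30, with 4363 positive. Between 40% and 50% GC the median was 0.21 over 47 genes, with 38 positive and MRPL44 and MRPL19 called. Over all 9714 genes in that range it was 0.00, with 4898 positive. Over 50% GC it was -0.02 over 17 genes, with 8 positive and none called. Over all 5088 genes in that range it was -0.29, with 732 positive. Of all genes in these ranges, 1058 were called higher and 17 lower under 40% GC, 251 higher and 201 lower from 40% to 50%, and 3 higher and 543 lower over 50%. The mitochondrial ribosomal protein genes thus matched the rest at low GC and lay above it at middle and high GC, a difference that was not tested.

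At the low end of the range 6 genes shared 35% GC and at the high end 11 shared 55%, and among genes so tied those named here come first by symbol. With 35% MRPL30 had a change of 0.33 ± 0.11 with S154D (SE, n = 3 arrays a group, adjusted p = 0.0835 by limma). With 55% MRPL2 had 0.13 ± 0.16, MRPL34 0.00 ± 0.10 and MRPL14 -0.02 ± 0.15 (adjusted p = 0.626, 0.99 and 0.957 by limma). All 11 genes at 55% ranged from -0.32 for MRPL4 to 0.14 for MRPL55. The signs of the last pair turned with the scaling: MRPL14 was 0.02 with quantile normalisation and 0.09 with scaling by the array median, and MRPL34 was -0.08 with quantile normalisation.

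**Figure D4:**
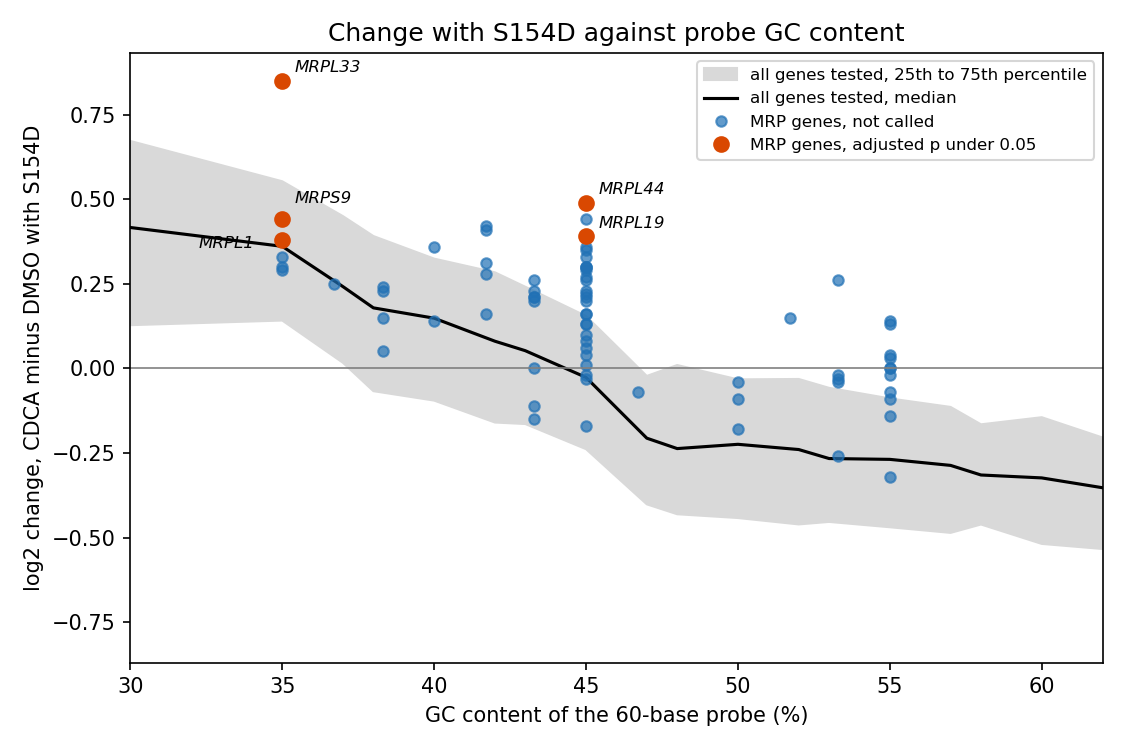
Log2 change between CDCA and DMSO with S154D (vertical axis) against the GC content of the probe in percent (horizontal axis) for 75 genes, over the median (line) and the 25th to 75th percentile (grey) of all genes tested at each GC content. The called genes MRPL33, MRPS9 and MRPL1 sit at 35% and MRPL44 and MRPL19 at 45%, and the other points lie around the median line at low GC and mostly above it at higher GC.

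Within MRPL43 the probes' changes had the same order by GC. The change with S154D was 0.76 with the probe of 28.3% GC, 0.23 with that of 40%, 0.01 with that of 45%, which stood for the gene, and -0.35 with that of 53.3%. The probes at both ends were dim, the first at -5.34, -5.74 and -6.19 in S154D_DMSO and -5.27, -5.50 and -4.21 in S154D_CDCA, where 1 array stood apart from the rest. The last was at -3.91, -4.02 and -4.76 in S154D_DMSO and -4.33, -4.49 and -4.92 in S154D_CDCA, and its groups overlapped. The files give both end probes records other than that of the middle pair, so different transcripts of the gene cannot be told apart from GC content here.

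Across the 18 genes with probes of unequal GC, pairs of probes of the same gene were compared. The probe with less GC had the more positive change in 21 of 30 pairs with S154D and in 13 of 30 with S154A. These counts include the pairs of MRPL43, all of which went that way with S154D. The probes of a gene had the same sign in 11 of 22 genes with S154D and in 17 of 22 with S154A. Equal GC did not ensure a like change. The MRPL45 probes, both of 45% GC, had changes of 0.30 and -0.35 with S154D, and the MRPL30 probes of 35% had 0.33 and -0.54.

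For a GC correction, the deviation of each probe that passed the filter from its own mean over all arrays was taken. On each array the median deviation among probes of like GC content was then subtracted. After this correction limma called no gene of the 20355 with S154D, while 4087 were under 0.05 before adjustment. Among the 75 genes 23 were under 0.05 before adjustment, beside 20.1% of all genes, 64 had positive changes, and the median was 0.19. MRPL44 was then at 0.52 (adjusted p = 0.114), MRPL33 at 0.48 (adjusted p = 0.16) and MRPL19 at 0.42 (adjusted p = 0.114), all by limma. MRPS9 at 0.07 and MRPL1 at 0.01 lost most of their change. The Spearman correlation of the change with GC turned from -0.58 to 0.43 among these genes.

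The second comparison asked the same of cells with S154A, where no mitochondrial ribosomal protein gene passed the test by limma, beside 0.133% of all genes, 0.128% as higher and 0.00491% as lower. Unadjusted, 2 of 75 genes had a p under 0.05, beside 6.04% of all genes. The change was positive in 19 of 75 genes, beside 40.1% of all, and the median was -0.07, beside -0.04 over all genes. The median 95% interval reached 0.27 to either side of a gene's change, before any adjustment for the number of genes.

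MRPL44 had the most negative change with S154A, -0.64 ± 0.13 (SE, n = 3 arrays a group, adjusted p = 0.215 by limma), and its groups did not overlap. On the slides that held both groups the difference was -0.63 on slide 1 and -0.55 on slide 3. Its probe was dim, and with other processing or fewer arrays the change ran from -0.74 to -0.37. MRPS5, a small subunit protein, followed with -0.30 ± 0.14 (adjusted p = 0.839 by limma) and MRPS7, of the same subunit, with -0.27 ± 0.15 (adjusted p = 0.877 by limma). On the positive side were MRPS9 with 0.27 ± 0.11, MRPL3 with 0.20 ± 0.13 and MRPS18B with 0.17 ± 0.10, none of which passed the test. The 3 arrays of S154A_CDCA lay above those of S154A_DMSO in 3 genes, beside 3.70% of all genes, and below them in 4, beside 8.21%. The median over the genes was -0.09 on slide 1 and 0.02 on slide 3.

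The responses with both mutants come from separate arrays, and across the 75 genes they had a Pearson's r of 0.01 and a Spearman's rho of 0.09, as a description. In 41 genes the change was negative with S154A and positive with S154D, in 16 it was positive with both, in 15 negative with both, and in 3 positive with S154A and negative with S154D. MRPS9 was the gene with the most positive change with S154A and among those called with S154D, whereas MRPL44 stood at opposite ends.

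**Figure D5:**
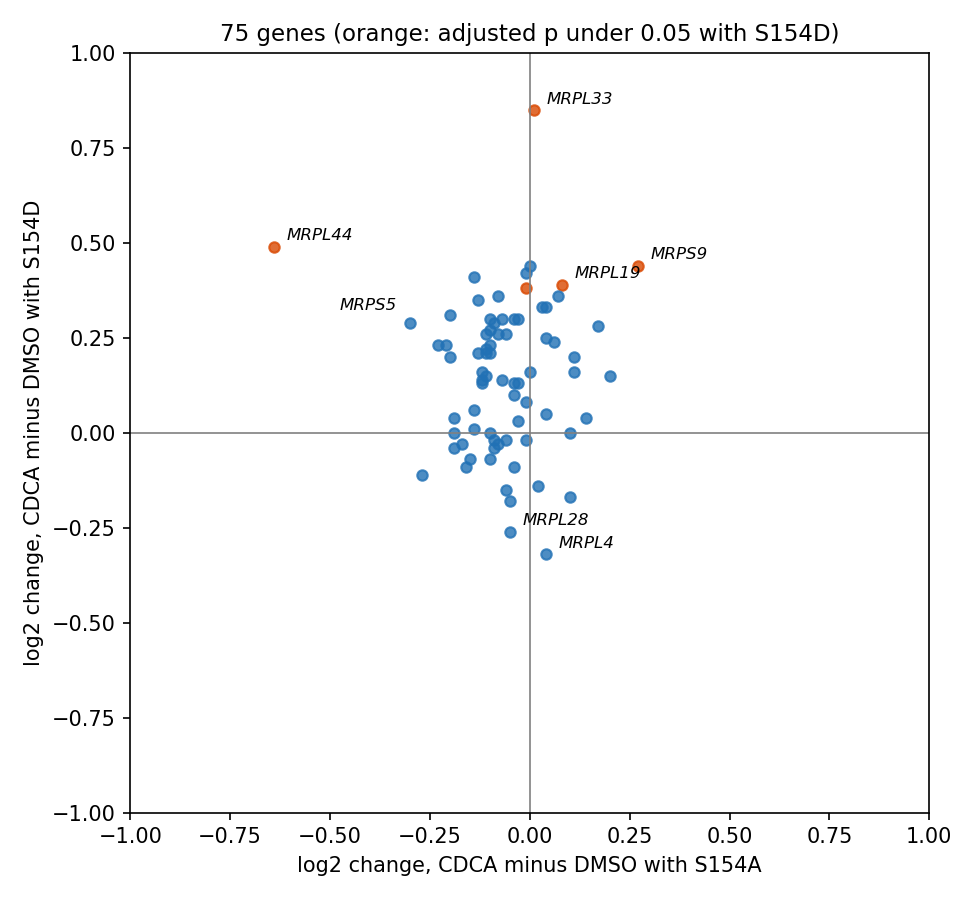
Log2 change between CDCA and DMSO with S154A (horizontal axis) and with S154D (vertical axis) for 75 genes, with the 5 called with S154D in orange. Most points lie above the horizontal zero line and left of the vertical one, MRPL44 lies at -0.64 and 0.49, and MRPL33 at 0.01 and 0.85.

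The difference of the responses, S154D minus S154A, was tested as an interaction term. None of the 75 genes passed by limma, beside 0.147% of all genes, 0.0442% as higher and 0.103% as lower. Before adjustment 11 were under a p of 0.05, beside 22.4%. MRPL44 came nearest with 1.13 ± 0.19 (SE, n = 3 arrays a group, adjusted p = 0.0524 by limma), followed by MRPL33 with 0.84 ± 0.26 (adjusted p = 0.116 by limma) and MRPS5 with 0.59 ± 0.20 (adjusted p = 0.139 by limma). With other processing or fewer arrays the difference for MRPL44, whose probe was dim, ran from 0.57 to 1.41. At the other end MRPL4 had -0.36, MRPS27, a small subunit protein specific to mitochondria, -0.27, and MRPL28 -0.21. The difference was positive in 64 of 75 genes, beside 53.3% of all genes, with a median of 0.21, beside 0.04. Of the 3911 genes with a mean log2 level of 2 or more, 2233 were positive, with a median of 0.06. The median of the 75 genes was 0.05 without slide 2, and 0.49 without scaling, where that of all genes was 0.32. On slide 3, which held 1 array of each group, the median was 0.19 over the 73 genes measured on all of its arrays.

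The third comparison set S154D against S154A in DMSO, without the bile acid. None of the 75 genes passed the test by limma, and none of the 20355 did, a background of 0%. At an unadjusted p under 0.05 there was 1 gene, MRPL51, beside 4.34% of all genes. Its log2 level was 4.89, 4.92 and 4.76 in S154A_DMSO, 4.92, 5.02 and 4.97 in S154A_CDCA, 5.07, 5.19 and 5.02 in S154D_DMSO, and 5.14, 5.29 and 5.33 in S154D_CDCA. The S154D_DMSO arrays of MRPL51 lay above all S154A_DMSO arrays, and the lowest of them was level with the highest of S154A_CDCA. The difference in DMSO was 0.24 ± 0.09 (SE, n = 3 arrays a group, adjusted p = 0.996 by limma).

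The other large values in DMSO were 0.17 for MRPL38 and 0.15 for MRPL49, and -0.30 for MRPL33, -0.29 for MRPS5 and -0.24 for MRPL12, the protein of the large subunit stalk that recruits translation factors. Without scaling between arrays MRPL51 was at -0.01, MRPL38 at -0.07 and MRPL49 at -0.09. Positive values were found in 35 of 75 genes, beside 50.1% of all, and the median was -0.01, beside 0.00. Groups did not overlap in 2 genes that were higher, beside 4.82% of all genes, and 5 that were lower, beside 6.23%. The median was 0.05 on slide 1 and -0.06 on slide 3.

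The fourth comparison set S154D against S154A under CDCA. It shares its S154D_CDCA arrays with the first comparison and its S154A_CDCA arrays with the second. MRPL44 passed the test and was higher with S154D by 0.93 ± 0.13 (SE, n = 3 arrays a group, adjusted p = 0.0196 by limma), or 1.91-fold, with a 95% interval of 0.63 to 1.23. It was the single gene called of 75, beside 0.403% of all genes called, 0.0737% as higher. The difference was 0.94 on slide 3 and 0.89 after the GC correction, where the call held with an adjusted p of 0.015 by limma. It did not pass with the slide as a block (0.92, adjusted p = 0.301 by limma), with only the arrays compared (0.93, adjusted p = 0.136 by limma) or with the normexp background correction (0.48). The call was also lost, with adjusted p-values up to 0.0801 by limma, without any one of S154A_CDCA 1, S154A_CDCA 2, S154A_CDCA 3, S154D_CDCA 2 or S154D_CDCA 3, which left 0 genes called.

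Under CDCA the next values were 0.54 ± 0.18 for MRPL33 (adjusted p = 0.131 by limma) and 0.46 ± 0.14 for MRPL32 (adjusted p = 0.114 by limma), with SE and n = 3 arrays a group. MRPL32 is a large subunit protein that a protease of the inner membrane cuts to its mature form. Its log2 level was 4.08, 4.26 and 3.96 in S154A_DMSO, 4.12, 4.14 and 4.02 in S154A_CDCA, 4.30, 4.25 and 3.81 in S154D_DMSO, and 4.43, 4.67 and 4.56 in S154D_CDCA. The S154D_CDCA arrays of MRPL32 stood above the other 9. The lowest values were -0.23 for MRPL4, -0.17 for MRPL28 and -0.15 for MRPS27, none of which passed the test.

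The difference under CDCA was positive in 68 of 75 genes, beside 56.2% of all genes, with a median of 0.20, beside 0.06. Of the 3911 genes with a mean log2 level of 2 or more, 2682 were positive, with a median of 0.12. Without slide 2 the median of the 75 genes was 0.11, and on slide 3 alone 0.14. The S154D_CDCA arrays lay above the S154A_CDCA arrays in 32 of 75 genes, beside 20.9% of all genes, and below them in 2, beside 7.63%. By GC content the median was 0.24 over 11 genes under 40%, 0.24 over 47 genes from 40% to 50% and 0.11 over 17 genes over 50%. The medians over all genes were 0.23, 0.07 and -0.15 in these ranges. The Spearman correlation with GC was -0.40 over 75 genes and -0.39 over all.

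On single arrays, the Spearman correlation between probe GC and a gene's deviation from its mean over 12 arrays was negative on the S154D_CDCA arrays, at -0.30, -0.50 and -0.50 over the 75 genes. It was positive in S154D_DMSO, at 0.60, 0.36 and 0.22. It spread from -0.15 to 0.55 in S154A_DMSO and from -0.57 to 0.34 in S154A_CDCA. The ordering by GC thus moved with the groups compared in S154D cells, and it also varied between arrays of 1 group.

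The list of mitochondrial translation factors and tRNA enzymes was read in the same way in S154D cells. Of 32 genes tested in this list, 22 had positive changes, beside 49.1% of all genes, with a median of 0.19. Of them 2 rose and 1 fell, beside 6.45% of all genes called higher and 3.74% lower. MTIF2, the initiation factor that brings the first tRNA, rose by 0.82 ± 0.18 (35% GC, adjusted p = 0.0303 by limma). ICT1, a peptide release factor that is also built into the large subunit and stands in the next list too, rose by 0.44 ± 0.11 (38.3% GC, adjusted p = 0.0375 by limma). TUFM, the elongation factor that delivers tRNA, fell by 0.53 ± 0.14 (50% GC, adjusted p = 0.0453 by limma). EARS2, which charges tRNA with glutamate, had the lowest value, -0.73 ± 0.31, and did not pass (each SE, n = 3 arrays a group).

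Of the 6 ribosome proteins with other names that were tested, CHCHD1 and ICT1 rose, beside 6.45% of all genes called higher. CHCHD1, of the small subunit, rose by 0.48 ± 0.13 (35% GC, adjusted p = 0.048 by limma). The other 4 did not pass, AURKAIP1 being lowest at -0.02 ± 0.12, and the median was 0.13. The sign of AURKAIP1 turned with scaling by the array median, to 0.08. Of 17 genes for assembly of the ribosome, 2 rose and 1 fell, beside 10.2% of all genes called in either direction, with a median of -0.02. FASTKD2, an RNA-binding protein needed for the large subunit, rose by 0.66 ± 0.11 (38.3% GC, adjusted p = 0.0271 by limma), and C7orf30, now MALSU1, rose by 0.45 ± 0.12 (36.7% GC, adjusted p = 0.0466 by limma). GTPBP5, a GTPase of large subunit assembly, fell by 0.62 ± 0.14 (55% GC, adjusted p = 0.0335 by limma).

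Of 12 genes that transcribe mitochondrial DNA or drive nuclear genes for mitochondria, 8 had positive changes with S154D, beside 49.1% of all genes. TFAM, which packs mitochondrial DNA and starts its transcription, rose by 0.78 ± 0.16 (35% GC, SE, n = 3 arrays a group, adjusted p = 0.0299 by limma), beside 6.45% of all genes called higher. PPARGC1B had the lowest value, -0.73 ± 0.36, and did not pass, and the median was 0.12. After the GC correction none of these called genes passed by limma, with 0.45 for MTIF2, 0.25 for ICT1, -0.30 for TUFM, 0.11 for CHCHD1, 0.47 for FASTKD2, 0.20 for C7orf30, -0.33 for GTPBP5 and 0.41 for TFAM. In S154A cells, and between the mutants with and without CDCA, these 4 lists had 0 genes called by limma. At an unadjusted p under 0.05, the mitochondrial translation list had 0 of 32 genes with S154A, 1 in DMSO and 15 under CDCA, and the assembly list 0, 1 and 6 of 17. The other ribosome proteins had 0, 0 and 1 of 6, and the transcription list 0, 1 and 5 of 12. The shares of all genes were 6.04% with S154A, 4.34% in DMSO and 23.6% under CDCA.

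For comparison, the 84 cytosolic ribosomal protein genes had a median of -0.07 with S154D, with 30 positive, 1 called higher and 1 called lower. The 79 respiratory chain genes, many of which encode partners of the proteins that the mitochondrial ribosome makes, had a median of 0.09, with 53 positive, 3 called higher and 1 lower. Over all genes 49.1% were positive, 6.45% were called higher and 3.74% lower. All 3 families had a median probe GC of 45%, but they differed in brightness. The median log2 level was 6.79 for cytosolic ribosomal proteins, 4.35 for the respiratory chain and 3.33 for mitochondrial ribosomal proteins. Between S154D and S154A under CDCA, the medians were 0.07 for cytosolic ribosomal proteins, 0.17 for the respiratory chain and 0.20 for mitochondrial ribosomal proteins. These are descriptions, and the families were not tested against each other.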

How the data were processed

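Each of the 12 one-colour arrays was deposited as a scanner file, whose intensity per spot Agilent Feature Extraction had background-subtracted, per the file headers (version 9.5.3.1; the submitters' processing notes name version 12). The deposited series table held the same intensities, unscaled between arrays. Intensities were put on the log2 scale and the array's 75th percentile over non-control spots was subtracted, after 66 to 196 outlier spots per array were removed. One mean per group was fitted to 12 arrays with limma (version 3.58.1, R 4.3.3), and p-values (two-sided) were adjusted over 20355 genes in each of 5 comparisons. Slides were read from the scanner files' names. The fitting code was tested on simulated data.

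The genes named are those called, the 3 highest and 3 lowest in each comparison, the 3 with least and 3 with most probe GC (ties, among 6 and 11 genes, by symbol), and, for CDCA against DMSO with S154D, called and extreme members of each pathway list. The members and lists were chosen with earlier results of these data known. The number of arrays limits the precision. Alternatives changed the scaling, the background correction, the filter, the probes per gene, the slide or replicate block, the GC correction and the arrays used.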

Additional observations from a re-analysis of the deposited data

How the results depend on the processing

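The number of mitochondrial ribosomal protein genes called with S154D was 5 of 75 in the fit reported, beside 10.2% of all genes. It was 8 with scaling by the array median, 3 without slide 4 and 2 with normexp, beside 9.49%, 10.9% and 7.53% of all genes. It was 0 with the unscaled series table and no slide 2, beside 0.00491% and 0.0295% of all genes. It was also 0 with no filter, the slide as a block, the GC correction alone or with the slide as a block, and only the arrays compared. No gene at all was called in any of these last settings. With single arrays left out it ranged from 0 to 4, beside 0% to 10.7% of all genes. It was 6, 6 and 5 with quantile normalisation, a filter on every array and the mean of probes, beside 12.3%, 14.5% and 9.21%. Replicate numbers did not pair the arrays: over 18 same-numbered pairs the correlation of deviations ran from -0.35 to 0.51, and 9 exceeded 0.1. A replicate block left 0 called with S154D, among all 20355 genes too (6116 at an unadjusted p under 0.05), and 0 under CDCA, alone or with the GC correction. The single call between mutants under CDCA was 0 with the series table, normexp, no filter and the filter on every array, which leaves out MRPL44. It was also 0 with the slide block with or without the GC correction, no slide 2, no slide 4 and only the arrays compared. With single arrays left out it was 0 to 1. Over all genes 0.0147% to 1.4% were called in these settings.

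Medians moved most with scaling and slides. Without scaling they were -0.17 with S154A, 0.34 with S154D, -0.25 in DMSO and 0.49 for the difference of responses, where the medians of all genes moved to -0.14, 0.18, -0.24 and 0.32. Scaling by the array median gave 0.26 with S154D, 0.27 under CDCA and 0.28 for the difference, where all genes moved to 0.1, 0.12 and 0.11. Quantile normalisation gave 0.12 under CDCA, beside 0.03 over all genes. Without slide 2 they were 0.00, 0.07, 0.07, 0.11 and 0.05 (S154A, S154D, DMSO, CDCA, difference), and without slide 4 0.23 with S154D, -0.08 in DMSO and 0.30 for the difference. With single arrays left out they ranged from -0.12 to 0.00, 0.10 to 0.23, -0.08 to 0.08, 0.16 to 0.23 and 0.15 to 0.27.

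Of the changes of named genes, 979 alternatives kept direction and side, 232 lost a call, 1 gained one and 47 reversed. Reversals with S154D were AURKAIP1 (0.08 by array median, 0.16 unscaled, 0.01 with normexp and without slide 2 or 4, 0.32 with GC correction alone or with the replicate block, 0.31 with the slide block added), MRPL14 (0.02 quantile, 0.09 array median, 0.17 unscaled, 0.00 slide block, 0.08 without slide 4, 0.28 and 0.31 with GC correction), MRPL34 (-0.08 quantile and slide block, -0.01 normexp, -0.05 mean of probes and without slide 2, 0.00 without slide 4), MRPL2 (-0.04 mean of probes), MRPL24 (0.01 unscaled, 0.05 and 0.07 with GC correction), MRPL28 (0.02), MRPL30 (-0.04) and PPARGC1B (0.02), these last 3 with GC correction. Unscaled, MRPL38, MRPL49 and MRPL51 in DMSO were -0.07, -0.09 and -0.01, and MRPL28 and MRPS27 in the difference 0.07 and 0.01, MRPL28 also 0.00 with GC correction. With single arrays left out AURKAIP1 ranged from -0.07 to 0.01, MRPL14 from -0.12 to 0.08, MRPL2 from -0.01 to 0.22 and MRPL34 from -0.04 to 0.05. The causes were not tested.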

Other observations

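MRPL46, of the large subunit, and MRPS11, of the small subunit, are neighbours in the green monkey gene order, and their probes are the closest pair among these genes. They lie on opposite strands of chromosome 15 at chr15:86803720-86803779 and chr15:86822318-86822377 in hg17, with 18539 bases between them. With S154D the change was 0.25 ± 0.14 for MRPL46 (36.7% GC, adjusted p = 0.245 by limma) and -0.04 ± 0.14 for MRPS11 (53.3% GC, adjusted p = 0.882 by limma), with SE and n = 3 arrays a group. The other kept probe of each gene had a change of the opposite sign, -0.15 for MRPL46 and 0.24 for MRPS11. This pair was chosen after its values were seen.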
